A study of Mus musculus with 9 samples.

Results

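The regions described here are the ZEB1 peaks at 8 genes for transcription factors of the epithelial-mesenchymal transition (EMT), namely Zeb1, Zeb2, Snai1, Snai2, Twist1, Twist2, Prrx1 and Foxc2. A consensus peak was taken when its centre lay inside one of these genes, or when the closest protein-coding gene boundary within 50 kb was one of theirs. This gave 22 of 23623 consensus peaks, at 6 of the 8 genes, and 19 of the 22 held enough counts to be tested. Per the labels, ZEB1-bound DNA was recovered by CUT&RUN, in which a nuclease tethered to an antibody cuts the DNA beside its target, from the mouse mammary tumour line PB3, which the labels give as negative for Er, Pr and Her2. The groups were an untreated control, labelled PB3-Parental, and cells labelled PB3_ERI that had 24, 48 or 72 h of eribulin, a microtubule inhibitor used against breast cancer, at 300 nM. Each had 2 ZEB1 libraries, and 1 library of untreated cells was made with IgG in place of the antibody. The labels do not say whether PB3_ERI differs from PB3-Parental in anything but the drug, so line and drug cannot be told apart, nor whether the replicates were separate cultures.

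EMT transcription factors are the switch proteins through which epithelial cells lose cell-cell junctions and gain motility. ZEB1, ZEB2, SNAI1 and SNAI2 are zinc-finger repressors that bind E-box motifs in the promoters of epithelial genes such as the E-cadherin gene, while TWIST1 and TWIST2 are basic helix-loop-helix factors, PRRX1 is a homeobox factor and FOXC2 a forkhead factor. These proteins regulate one another's genes, and mesenchymal breast cancer cells commonly express several of them. The series title names a drug-induced return toward the epithelial state, and the comparisons ask where ZEB1 sits at its own gene and at those of its partners, and whether that changes in eribulin.

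A pair of promoters is shown, those whose RefSeq promoter window a tested ZEB1 peak overlapped. An untested peak over an alternative Zeb2 start is left out, and Snai2 and Zeb1 had no such window. The sequences are from RefSeq on GRCm38.p6, plus strand, 5′ to 3′, and end at the last base before the annotated transcription start. Capitals mark the E-box form CACCTG, which reads CAGGTG on the other strand and is the core motif of the ZEB and SNAI zinc fingers. In the Snai1 promoter, the consensus peak covers 144 of the 250 bases and ends 19 bases before the transcription start. The E-box starts 126 bases before the first transcribed base and lies inside that peak. For Twist2 only the 142 bases of its peak that lie before the transcription start are given. Neither CACCTG nor the related ZEB form TACCTG, or CAGGTA on the other strand, occurs in them. The rest of this 453-base peak lies past the start and is not shown. Most of that rest was not searched, so the whole peak cannot be said to lack the motif.
Snai1 promoter, chr2:167537945-167538194: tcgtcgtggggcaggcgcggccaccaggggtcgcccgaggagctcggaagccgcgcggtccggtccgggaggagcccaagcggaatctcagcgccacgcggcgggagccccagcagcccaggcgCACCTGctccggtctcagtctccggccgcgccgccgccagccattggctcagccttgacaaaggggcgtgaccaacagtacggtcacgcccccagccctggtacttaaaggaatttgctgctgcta
Twist2 promoter, chr1:91801319-91801460: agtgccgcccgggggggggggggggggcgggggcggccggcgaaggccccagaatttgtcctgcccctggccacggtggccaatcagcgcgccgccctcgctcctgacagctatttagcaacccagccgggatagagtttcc

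Of all 32851 promoter windows of 300 bases in the RefSeq table, 20.2% hold CACCTG and 11.96% hold TACCTG on either strand. The table has windows for 5 of the 8 genes, namely Snai1, Twist1, Twist2, Prrx1 and Zeb2, the last with 4 windows, and only the Snai1 window held a match. A match describes the letters and is not a shown binding site.

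The 22 peaks were unevenly spread over the genes. Snai1 had 6, Zeb2 had 5, Twist2 had 4, Zeb1 and Prrx1 had 3 each and Snai2 had 1. In all, 11 had their centre inside the gene and 6 lay within 1 kb of a start or end. Twist1 and Foxc2 had none: the nearest consensus peak to Twist1 began 80.1 kb away and was assigned to Hdac9, and the nearest to Foxc2 lay 6.51 kb away beside its forkhead neighbour Foxl1. The peaks were 57 to 1044 bases wide, with a median of 365.5 bases against 347 bases for all consensus peaks.

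**Figure D1:**
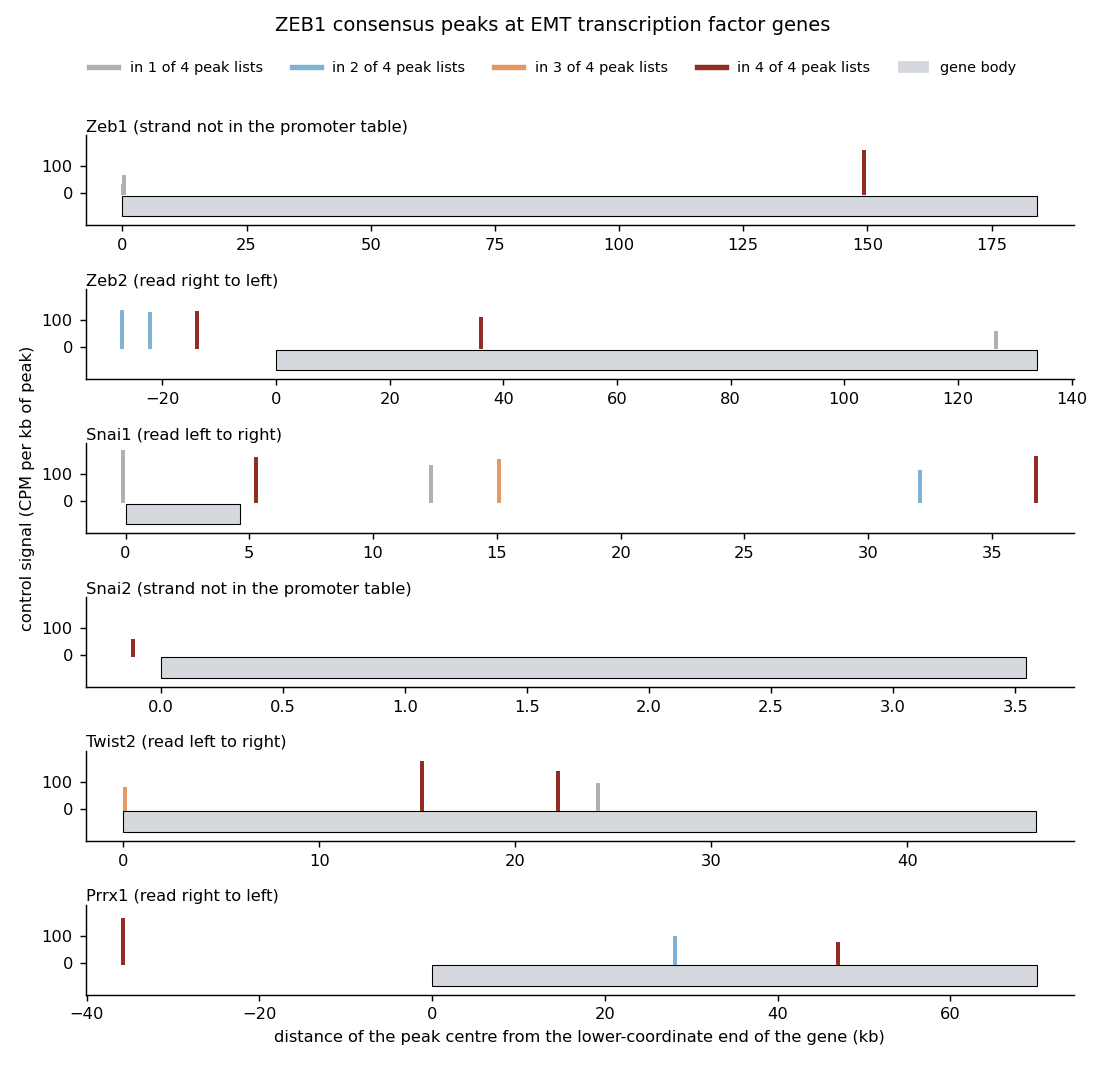
Position of the 22 peaks at 6 genes. The x axis is the distance in kb of the peak centre from the lower-coordinate end of the gene (grey bar), bar height is the mean control signal in CPM per kb of peak, and colour gives the number of the authors' 4 peak lists that hold the peak. The tallest bar is the Snai1 promoter peak, and the peaks at the Zeb1 boundary are lower than the one deep inside that gene.

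Library totals ran from 326944 to 765015 counts, and the median count per tested peak and library was 19. The replicates of the control, 24 h and 72 h groups differed by no more than counting error, with a chi-square per degree of freedom of 0.931, 0.953 and 0.965. Those at 48 h differed by slightly more (1.06). Between libraries of different groups it was 1.12 to 2.28. The p-values below therefore measure only the spread between these libraries, which may be technical. Signal is given as CPM, which puts the counts of each library on the same total in tested peaks, and changes were tested over all 21192 tested peaks with edgeR's quasi-likelihood test and a Benjamini-Hochberg adjusted p, called below 0.05.

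The authors called 1 peak list per group against the IgG library. The untreated list held 18 of the 22 peaks, and the 24, 48 and 72 h lists 14 each, while those lists held 78.7, 63.0, 60.2 and 51.6% of all consensus peaks. At a −log10 q of at least 5 the lists held 15, 13, 14 and 8 of the 22, and where a list had to cover 50% of a peak 18, 13, 12 and 8. The share of all consensus peaks was not counted under either rule, so the fall at 72 h cannot be called particular to these genes. Of the 22 peaks 10 were in all 4 lists (45.5%, against 34.7% of all consensus peaks). In the authors' peak lists the fold over IgG at these peaks had a median of 8.41 in the control, 8.78 at 24 h, 9.76 at 48 h and 6.45 at 72 h. For all consensus peaks of each list it was 7.14, 7.43, 8.92 and 6.82. The peak names within each list carry replicate 1 alone, and what part replicate 2 had in a list is not given. With 1 list per group these values have no replicates, and no test between groups was made.

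**Figure D2:**
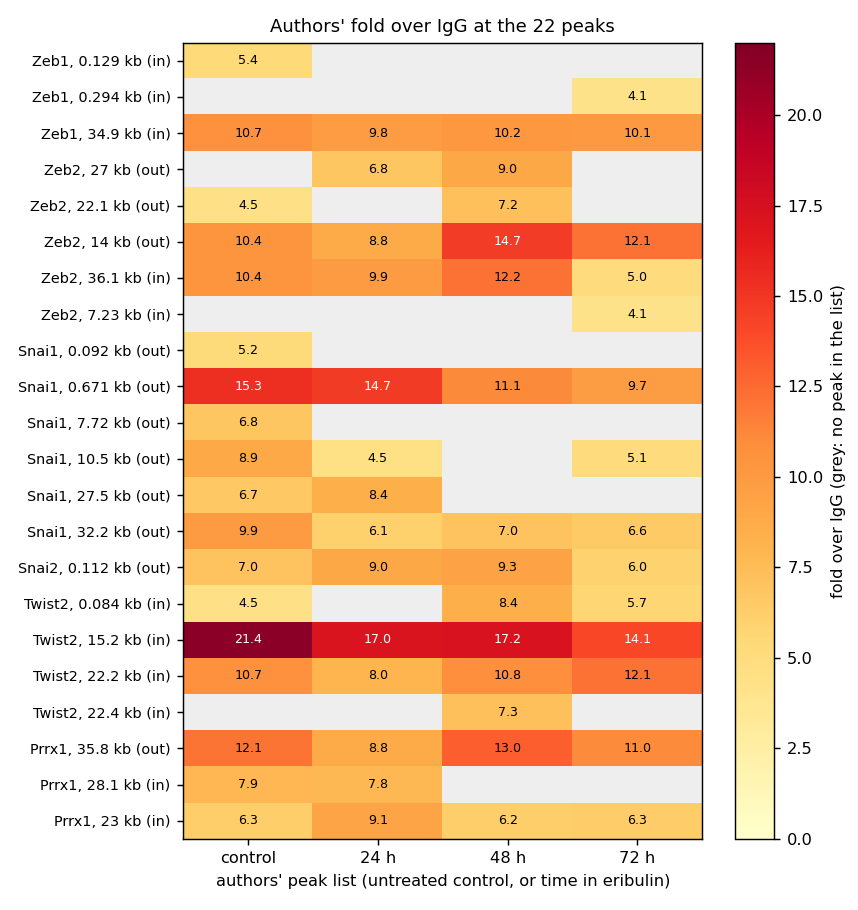
The authors' fold over IgG at the 22 peaks, by group from control to 72 h. Rows are named by gene, distance to its nearest boundary in kb and whether the centre is in or out of the gene, and grey means that the list holds no peak. The Twist2 peak at 15.2 kb is highest in every list (21.4 in the control), and 3 peaks are in the control list alone.

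At its own gene, most of the ZEB1 signal lay deep inside the gene, and no Zeb1 peak was called. The peak at chr18:5740248-5740819, 34.9 kb from the higher-coordinate end of Zeb1, held 79.8 and 94.8 CPM in the controls, 71.6 and 80.5 CPM at 24 h, 64.8 and 77.0 CPM at 48 h, and 60.1 and 53.3 CPM at 72 h. The 48 and 72 h libraries all lay below both controls, and those at 24 h overlapped them. The log2 fold change was -0.22 (SE 0.208, adjusted p = 0.528) at 24 h, -0.35 (SE 0.211, adjusted p = 0.286) at 48 h and -0.64 (SE 0.258, adjusted p = 0.0830) at 72 h in edgeR, and none was called. At the lower-coordinate boundary of Zeb1 a pair of narrow peaks, 57 and 101 bases wide, each stood in 1 list. They held 0 to 3 and 1 to 10 counts per library and were not tested. Both also lie in the noncoding gene Gm10125, so signal there cannot be given to Zeb1 alone.

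Zeb2, the close relative of Zeb1, had no called peak. Its largest signal, inside the gene at chr2:45019108-45020151, was 121 and 97.8 CPM in the controls, 147 and 131 CPM at 24 h, 119 and 140 CPM at 48 h, and 99.4 and 119 CPM at 72 h. The 24 h libraries lay above both controls and the later ones overlapped them (log2 fold change 0.38, SE 0.177, adjusted p = 0.159 at 24 h in edgeR). The peak 13.99 kb beyond the 3′ end held 77.0 and 87.1 CPM in the controls and 43.9 to 90.1 CPM over the 6 eribulin libraries. At 72 h its replicates were 90.1 and 43.9 CPM, on either side of the controls. A pair of weaker peaks 22.1 and 27.0 kb beyond the 3′ end had log2 fold changes of -0.44 (SE 0.319) and -0.42 (SE 0.313) over the mean of the 3 times. The controls of the farther one, 11 and 42.8 CPM, spanned all 6 eribulin libraries. A narrow peak overlapping the promoter window of an alternative Zeb2 start, at chr2:45110154-45110275, stood in the 72 h list alone, with 2 to 7 counts per library, and was not tested.

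Snai1, whose product is a repressor of E-cadherin, had the most peaks, of which 3 were called lower at 1 or more times. Of the 3, 1 is given as a description only, because it reached the low-count filter through the 2 controls and 0 of the 6 eribulin libraries, and a peak that enters so has to differ. This peak at chr2:167550442-167550629, 7.72 kb beyond the 3′ end, held 27.5 and 19.9 CPM in the controls, 6.82 and 8.19 CPM at 24 h, 2.65 and 6.84 CPM at 48 h, and 6.93 and 9.41 CPM at 72 h. All 6 eribulin libraries lay below both controls. The fitted log2 fold change passed the threshold at 24 h (-1.55, SE 0.546, adjusted p = 0.0486 in edgeR) and at 48 h (-2.28, SE 0.611, adjusted p = 0.00739), and over the mean of the 3 times (-1.77, SE 0.466, adjusted p = 0.00423). At 72 h it did not pass (-1.48, SE 0.636, adjusted p = 0.108). These values rest on 10 and 13 counts in the controls and 2 to 6 counts in each eribulin library. Only the control list holds the peak, so its limits too were set in the group where its signal was high. The filter of 10 counts in 4 libraries does not keep it. Over the mean it did not pass without control replicate 1 (adjusted p = 0.0690) or 2 (0.0591), and at 48 h without control replicate 1 (0.0593), control replicate 2 (0.0509) or 48 h replicate 1 (0.134). At 24 h it was lost without either control (0.218 and 0.150), without either 24 h library (0.170 and 0.159) and with the replicate block (0.0668). DESeq2 gave it no adjusted p.

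Farther along the same side, a pair of peaks was lower at 48 h. At chr2:167569889-167570707, 27.5 kb beyond Snai1 and inside the noncoding gene Gm11476, the libraries held 77.0 and 96.3 CPM in the controls, 83.6 and 76.4 CPM at 24 h, 55.6 and 47.9 CPM at 48 h, and 60.1 and 65.9 CPM at 72 h. The 48 and 72 h libraries lay below both controls and the 24 h libraries overlapped them. Signal was lower at 48 h (log2 fold change -0.77, SE 0.226, adjusted p = 0.0146 in edgeR) but was not called at 24 h (-0.17, adjusted p = 0.654) or 72 h (-0.51, adjusted p = 0.163). The peak 10.5 kb beyond the gene was also lower at 48 h, with 34.4 and 51.3 CPM against 68.8 and 71.8 in the controls (-0.76, SE 0.253, adjusted p = 0.0363), and held 54.6 and 72.3 CPM at 24 h and 67.0 and 59.6 CPM at 72 h. The authors' peak list at 48 h holds neither of these peaks. The steps between times were not called at either peak, with adjusted p = 0.154 and 0.194 for 48 against 24 h and 0.791 and 0.474 for 72 against 48 h. Neither call at 48 h held in DESeq2 (adjusted p = 0.401 and 0.507) or without control replicate 2 (0.378 and 0.280). The nearer peak also missed without control replicate 1 (0.0705) or 48 h replicate 1 (0.393), and the farther one without 48 h replicate 2 (0.0888). With the replicate block, the nearer peak had adjusted p = 0.0551. With libraries thinned to equal totals neither call held in edgeR (adjusted p = 0.131 for the nearer peak and 0.0735 for the farther one).

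The other 3 Snai1 peaks were not called. The promoter peak that holds the E-box, chr2:167538032-167538175, had 27.5 and 24.5 CPM in the controls, 17.1 and 24.6 CPM at 24 h, 22.5 and 15.4 CPM at 48 h, and 11.6 and 25.1 CPM at 72 h. The control list alone holds this peak, yet its log2 fold change over the mean was -0.40 (SE 0.336, adjusted p = 0.438 in edgeR), with overlapping groups. At 0.671 kb beyond the 3′ end, the Snai1 peak with the most CPM held 90.8 and 97.8 CPM in the controls, 104 and 102 CPM at 24 h, 68.8 and 66.7 CPM at 48 h, and 76.3 and 78.4 CPM at 72 h. The 24 h libraries stood above both controls and the 48 and 72 h libraries below both, and the difference between 48 and 24 h itself was not called (-0.60, SE 0.192, adjusted p = 0.0936). The sixth peak, 32.2 kb away and inside the noncoding genes Gm11476 and Gm31619, was at 32.4 and 30.0 CPM at 24 h against 49.5 and 50.4 in the controls (-0.69, SE 0.293, adjusted p = 0.119). It held 38.4 and 39.3 CPM at 48 h and 41.6 and 65.9 CPM at 72 h.

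Snai2, whose product is also known as Slug, had higher ZEB1 signal at its boundary. Its single peak, chr16:14705411-14706070, spans the lower-coordinate end of the gene. Signal was 38.5 and 29.0 CPM in the controls, 59.7 and 60.03 CPM at 24 h, 39.7 and 42.8 CPM at 48 h, and 62.4 and 56.5 CPM at 72 h. Every eribulin library lay above both controls, the 48 h libraries by the least. The log2 fold change was 0.88 (SE 0.280, adjusted p = 0.0274 in edgeR) at 24 h and 0.70 (SE 0.253, adjusted p = 0.0435) over the mean of the 3 times. It was 0.34 (SE 0.306, adjusted p = 0.517) at 48 h and 0.88 (SE 0.319, adjusted p = 0.0529) at 72 h, neither of them called. The call over the mean was lost without any 1 of the 8 libraries (adjusted p = 0.05001 to 0.537, the highest without control replicate 2), with the replicate block (0.0511) and in DESeq2 (0.415). At 24 h it was lost without control replicate 2 (0.393), without 24 h replicate 1 (0.0805) or 2 (0.118), and in DESeq2 (0.450). With libraries thinned to equal totals both calls were lost in edgeR (adjusted p = 0.309 at 24 h and 0.196 over the mean). The controls held 14 and 19 counts here.

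Twist2, a helix-loop-helix factor also called Dermo1, carried the peak with the most CPM of the 22, and another of its peaks rose at 72 h. The first, at chr1:91816197-91817209, held 171 and 173 CPM in the controls, 200 and 232 CPM at 24 h, 172 and 214 CPM at 48 h, and 148 and 169 CPM at 72 h. Both 24 h libraries stood above the controls and both 72 h libraries below. The difference between 72 and 24 h was -0.47 (SE 0.164, adjusted p = 0.0753 in edgeR) and was not called, though it was with libraries thinned to equal totals (-0.62, adjusted p = 0.0477). At chr1:91823465-91823839, 22.2 kb from the start, signal was 63.3 and 36.7 CPM in the controls, 61.4 and 62.8 CPM at 24 h, 51.6 and 56.5 CPM at 48 h, and 80.9 and 91.0 CPM at 72 h. Only the 72 h libraries cleared both controls, and the log2 fold change there was 0.88 (SE 0.272, adjusted p = 0.0212 in edgeR). That call was lost without control replicate 2 (0.43, adjusted p = 0.505), without 72 h replicate 1 (adjusted p = 0.0891) or 2 (0.123), and in DESeq2 (0.348). With libraries thinned to equal totals it was lost as well (0.59, adjusted p = 0.206 in edgeR). Over the mean the same peak did not pass (0.51, SE 0.222, adjusted p = 0.0999).

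The peak over the Twist2 promoter was not called at any time. It held 22 and 44.3 CPM in the controls, 22.2 and 21.8 CPM at 24 h, 31.8 and 22.2 CPM at 48 h, and 37.0 and 21.96 CPM at 72 h, so that 4 of the 6 eribulin libraries lay between the controls. The log2 fold change over the mean was -0.45 (SE 0.285, adjusted p = 0.279 in edgeR). The last Twist2 peak, in the 48 h list alone, ranged from 13.9 to 29.1 CPM over the eribulin libraries and was 22 and 16.8 CPM in the controls. The 3 peaks within the gene body lie in the noncoding gene Gm46117 as well.

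Prrx1, which encodes a homeobox factor, had no called peak, and its log2 fold changes had both signs. The peak 35.8 kb beyond its 3′ end, chr1:163208936-163209616, held 116 and 101 CPM in the controls, 83.6 and 68.2 CPM at 24 h, 75.4 and 83.8 CPM at 48 h, and 83.2 and 72.1 CPM at 72 h. All 6 eribulin libraries lay below both controls, and the change over the mean just missed the threshold (-0.45, SE 0.169, adjusted p = 0.0506 in edgeR). It passed in 5 of 16 alternatives, among them the replicate block (adjusted p = 0.0446), and did not in DESeq2 (0.414). Inside the gene, the peak at chr1:163273086-163273441 held 38.5 and 26.0 CPM in the controls, 30.7 and 30.0 CPM at 24 h, 18.5 and 11.98 CPM at 48 h, and 9.25 and 21.96 CPM at 72 h. Its libraries at 48 and 72 h lay below both controls without a call (-0.95, SE 0.392, adjusted p = 0.0992 and -1.05, SE 0.468, adjusted p = 0.1249), and the authors' peak lists of those times do not hold it. The other peak inside Prrx1, which also lies in the noncoding gene Gm20471, had a positive value, with 39.2 and 36.8 CPM at 24 h against 24.8 and 21.4 in the controls (0.74, SE 0.348, adjusted p = 0.159). Its later libraries held 21.96 to 46.2 CPM and overlapped the controls at 72 h.

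**Figure D3:**
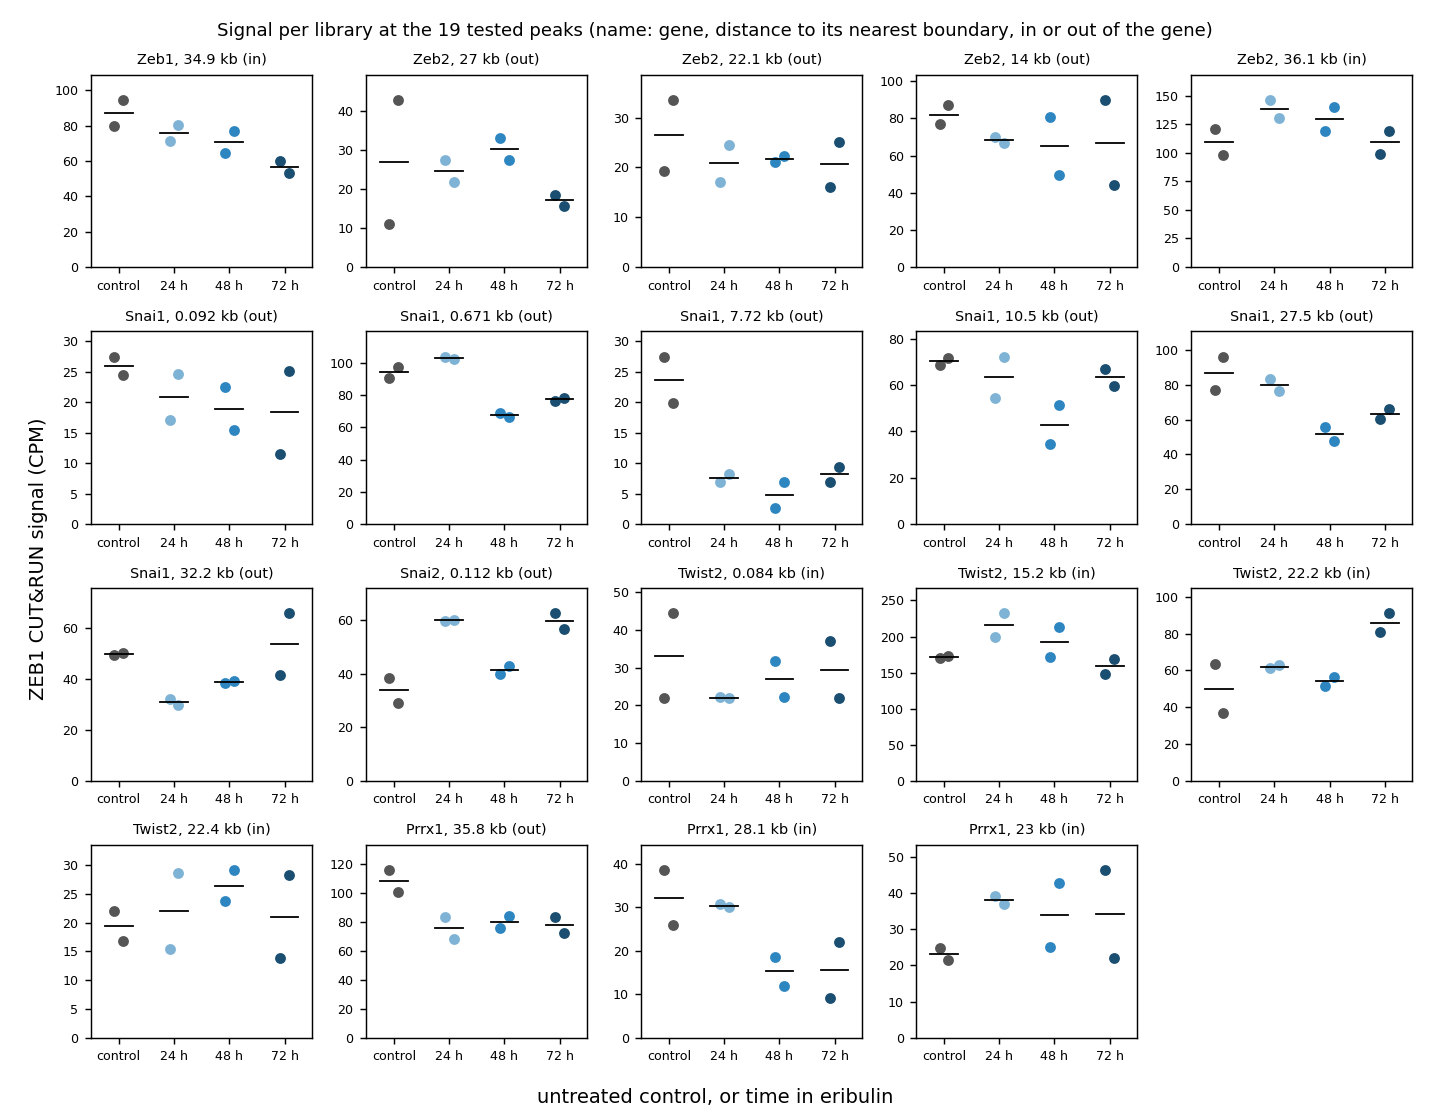
ZEB1 signal in CPM at the 19 tested peaks, with 1 point per library, a line at the mean of the 2 replicates, and groups from control to 72 h on the x axis. Panels have their own y axis from 0. The Snai1 peak at 7.72 kb, which reached the low-count filter through the controls only, is lower in all 6 eribulin libraries than in both controls. The Snai2 peak is higher in all 6.

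Counted together, the share of these peaks that was called was near that of all tested peaks at 24 and 48 h. It was lower at 72 h and over the mean, but each share rests on 1 to 3 called peaks and no test was made between shares. At 24 h, 1 of the 19 tested peaks was higher and 1 lower (10.5%), against 11% of all tested peaks, 6.44% higher and 4.61% lower. At 48 h 3 were lower and 0 higher (15.8%, against 11.5% of all, 6.09% higher and 5.41% lower), at 72 h 1 was higher and 0 lower (5.26%, against 12.6% of all, 6.84% higher and 5.74% lower), and over the mean of the 3 times 1 was higher and 1 lower (10.5%, against 16.8% of all, 8.27% higher and 8.53% lower). At an unadjusted p below 0.05 edgeR had 8, 6, 6 and 8 of the 19. The share of all tested peaks at that threshold was not counted, so these counts cannot be called high or low. The Snai1 peak at 7.72 kb, which entered through the controls only, gave 1 of the lower calls at 24 h, at 48 h and over the mean. Of the other 18, 2 were lower at 48 h and 0 in the other comparisons, and 1 was higher at 24 h, 1 at 72 h and 1 over the mean, with 0 higher at 48 h. Of all tested peaks, 10.1% entered through the eribulin libraries only and 0.911% through the controls only, against 0 and 1 of the 19. The share called among all peaks that entered through both was not counted, so the shares above are not fully alike. DESeq2 gave an adjusted p to 11, 11, 12 and 13 of the 19 in these comparisons and called 0 of them. Of all peaks to which it gave one, it called 90, 76, 115 and 231 (0.97, 0.784, 0.915 and 1.63%). The median log2 fold change of the 19 was -0.17 at 24 h, -0.37 at 48 h, -0.25 at 72 h and -0.35 over the mean, against -0.01, 0.00, 0.00 and -0.01 for all tested peaks. Over the mean, 13 of the 19 had a negative and 6 a positive value. All 6 Snai1 peaks were among the negative ones, so these are not 13 separate observations. The share of all tested peaks with a negative value was not counted.

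Groups without overlap were common among all peaks. At 48 h both libraries were below both controls at 9 of the 19 peaks, where 26.7% of all tested peaks were, and above both at 3, where 28.2% were. At 24 h the counts were 4 below and 5 above (27.6 and 27.5% of all), and at 72 h 8 below and 2 above (27.9 and 28.8%). All 6 eribulin libraries were below both controls at 2 peaks and above both at 1 (12.5 and 12.7% of all).

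Between times, 0 of the 19 were called in edgeR. For 72 against 24 h 4.71% of all tested peaks were called, 2.32% higher and 2.39% lower, and 7 of the 19 lay wholly below and 2 wholly above (26.5 and 26.3% of all). For 48 against 24 h 0.755% were called, 0.222% higher and 0.533% lower, and 6 lay below and 3 above (22.2 and 22.7%). For 72 against 48 h 0.0378% were called, 0.0283% higher and 0.00944% lower, and 3 lay below and 7 above (20.5 and 20.4%). At an unadjusted p below 0.05 edgeR had 3, 5 and 2 of the 19, again without a count over all tested peaks. DESeq2 gave an adjusted p to 9, 19 and 19 of them in these steps, the lowest 0.589, 0.9996 and 0.9999, and called 0, against 5, 0 and 0 of all peaks with one (0.0781, 0 and 0%). All comparisons with control use the same 2 control libraries, so the times are not independent of one another.

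**Figure D4:**
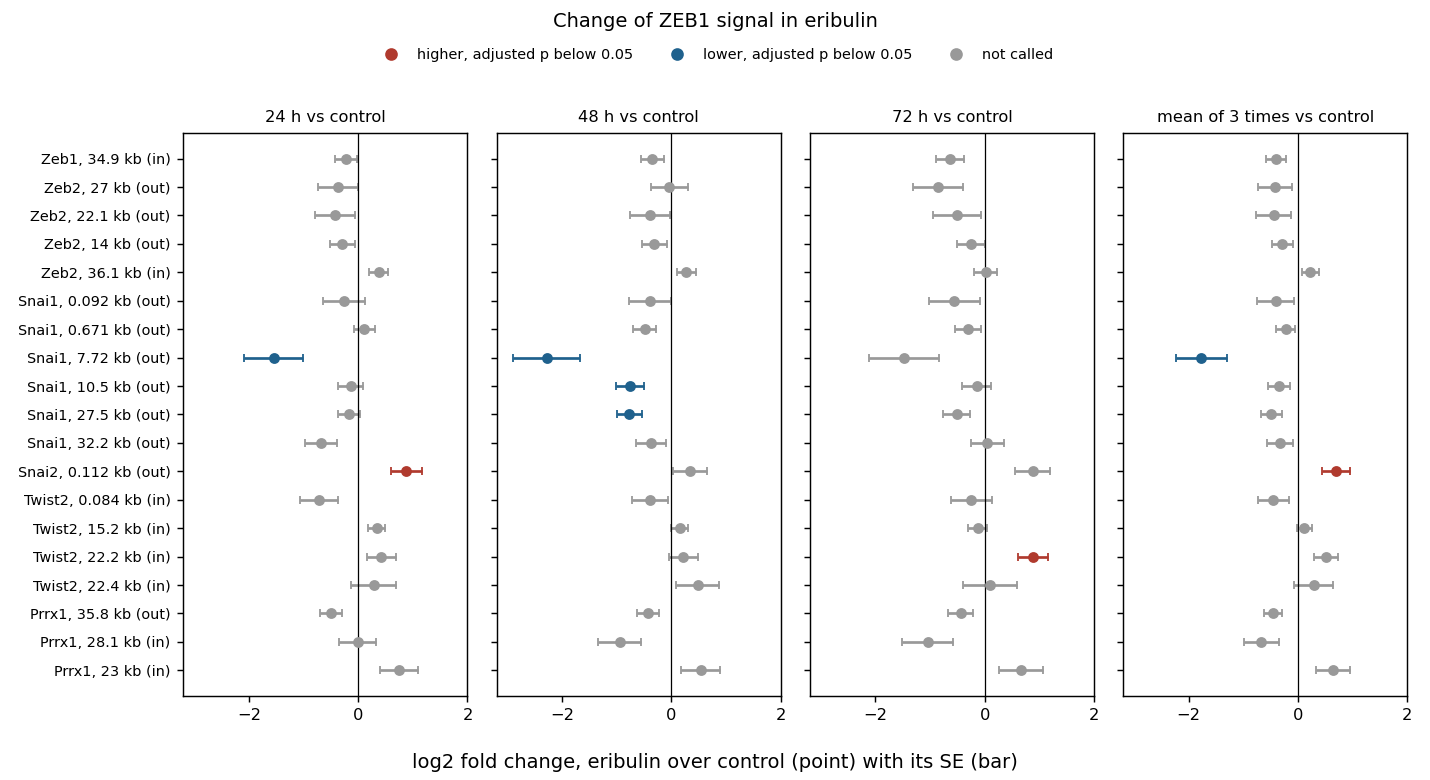
Log2 fold change of ZEB1 signal, eribulin over control, at the 19 tested peaks for 24, 48 and 72 h and the mean of the 3 times. Points are edgeR estimates, bars their SE, red and blue mark calls at an adjusted p below 0.05. The Snai1 peak at 7.72 kb lies farthest below 0, at -2.28 at 48 h, and most points lie within 1 of 0. That peak reached the low-count filter through the controls only, so its blue marks are a description.

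Per length of peak, Snai2 had the lowest level in the untreated cells. Summed over the peaks of a gene and divided by their width, Snai1 held 134 and 141 CPM per kb in the controls, Twist2 135 and 132, Zeb1 124 and 136, Prrx1 130 and 108, Zeb2 104 and 120, and Snai2 58.3 and 44.0. Neighbours in this order overlapped, except Snai2, which lay below all the others in both controls. In eribulin, Twist2 had the highest level at each time, with means of 156, 146 and 143 CPM per kb at 24, 48 and 72 h. Snai1 had 120, 88.2 and 111, Zeb1 123, 118 and 92.6, Prrx1 105, 93.5 and 92.4, Zeb2 116, 113 and 100.3, and Snai2 90.7, 62.5 and 90.1. At 72 h the Snai2 libraries, 94.6 and 85.5, overlapped those of Zeb1, 95.0 and 90.2. These are levels in the regions that the authors' lists define, and no test was made of them.

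For the called peaks over the mean of the 3 times, the most similar profiles over the 8 libraries were found among 8283 other peaks with an assigned gene and at least the median signal. For the Snai2 peak they were near Rnf185, a ubiquitin ligase gene (Pearson r of log2 CPM 0.982), Klhl2 (0.970) and Rassf8 (0.961). For the Snai1 peak at 7.72 kb they were near Ccn1, which encodes a secreted matrix protein (0.986), Crabp1, for a retinoic acid binding protein (0.959), and Mapkapk3, for a stress-activated kinase (0.958). The points share 4 groups and 8 library depths, and 1 in 100 candidates exceeded 0.866 and 0.865, so these values only describe likeness.

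Genes that act with or against these factors had called peaks in both directions. Among other factors that promote EMT, 80 peaks at 21 of 26 genes were tested, and over the mean of the 3 times 1 was higher (1.25%), 7 lower (8.75%) and 72 not called (of all tested peaks, 8.27% were higher and 8.53% lower). The lowest p values were those of the peak near the YAP partner gene Tead1 (log2 fold change -0.93, SE 0.209), a pair at and near Tcf3, which encodes the E-box factor E2A (-0.59 and -0.86), and the peak near Sox9 (-0.87). Among epithelial-state factors only 9 of 27 genes had a tested peak. Of 27 such peaks 1 was called higher (3.70%) and 3 lower (11.1%). The higher one, near Klf5, held 8 to 14 counts in each eribulin library against 1 and 3 counts in the controls. It reached the low-count filter through the eribulin libraries only, so its difference is a description and the fitted fold rests on nearly empty controls. Lower were a pair inside Trp63, the p63 gene (-1.69 and -1.19), and 1 inside Gata3 (-0.60). The first Trp63 peak entered through the controls only, with 14 counts in each control and 1 to 10 in each eribulin library.

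In the TGF-beta arm, which induces Snai1 and Zeb1 in many epithelial cells, 6 of 86 tested peaks were higher (6.98%) over the mean. Another 7 were lower (8.14%) and 73 not called, against 8.27% higher and 8.53% lower of all tested peaks. The lowest p values were those of a pair inside the ubiquitin ligase gene Smurf1 (-0.71 and -0.73), a peak near the co-receptor gene Tgfbr3 (-0.68) and one near the inhibitory Smad7 (1.24), which entered through the eribulin libraries only. The higher peaks at the boundaries of Smurf2 and Skil and inside Eng also entered through the eribulin libraries only. For all of these the higher signal is a description, as a peak that enters so has to differ. Among corepressors and regulators of the stability of these factors 3 of 35 were higher (8.57%), 4 lower (11.4%) and 28 not called. Of the 3 higher, the peak at the Ajuba boundary entered through the eribulin libraries only, with 2 and 11 counts in the controls, and is a description too. Fbxo11, for a ubiquitin ligase subunit that targets SNAI1, was lower at its boundary (-0.60, SE 0.141, adjusted p = 0.00131 in edgeR), as was a peak inside the corepressor gene Sin3a (-0.44). The methyltransferase gene Ezh2 was higher inside the gene (1.13), and Chek1, a checkpoint kinase gene, was lower at its boundary (-0.79). The medians of these lists in the order given were -0.04, -0.12, -0.04 and 0.04, against -0.01 for all tested peaks.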

How the data were processed

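Per the submitters' processing notes, the tools were Bowtie2 2.2.6, MACS2 2.1.1, bedtools 2.30.0 and featureCounts, with bcl2fastq 2.20.0.422, Picard, cutadapt 2.4 and deepTools also named, on mm10 (GRCm38), and their settings are not given in the sources used here. A deposited table holds raw counts per consensus peak for 8 ZEB1 libraries. The deposited peak lists give, per peak, a fold over IgG, a −log10 q and a score, the last not used. No counts of the IgG library are in that table.

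Peaks passing filterByExpr by group (21192, 89.7%) were fitted in edgeR 4.0.16 (R 4.3.3) with TMM, robust quasi-likelihood fits of 4 group means, which leave 4 residual degrees of freedom, and 7 contrasts, and tested on simulated data first. TMM factors ran from 0.994 to 1.01. SE is the absolute log2 fold change divided by the square root of F. CPM uses TMM-adjusted totals in tested peaks. DESeq2 was 1.42.0, and peaks to which it gave no adjusted p are left out of its counts and shares. A library counted toward the filter with at least 10 counts at the median total. Genes and promoters came from RefSeq, GRCm38.p6, on which 26 of 26, 27 of 27, 25 of 25 and 27 of 28 list genes matched. No added DNA was used here to scale libraries, so a change shared by all peaks cannot be seen.

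Members, lists and tests were chosen with earlier results of these data known. All member peaks that passed the filter are described. For called ones the 3 genes with the most similar profile (log2 of CPM plus 1) are named, and for each list up to 4 called peaks with the lowest p over the mean of the 3 times. Alternatives were another tool, normalization, filters, libraries left out, a replicate block, thinning, fits of the groups compared only, list thresholds and distance limits. A fit with the pairs of control, 24 h and 72 h summed was added after the replicates of these groups were seen to agree within counting error.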

Additional observations from a re-analysis of the deposited data

How the results depend on the processing

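Over 424 recomputed values of the tested peaks, 369 kept direction and side of the threshold, 44 lost a call, 8 gained one, and 3 changed sign, all without control replicate 2: the Zeb2 peaks at 27.0 and 22.1 kb (1.08 and 0.13) and the Twist2 promoter peak (0.27). Leaving out 1 library gave -0.87 to 1.08, -0.69 to 0.13 and -0.75 to 0.27 for these. None of these 3 was called in either fit, and the cause was not tested. Only the values of results called in the main fit could lose a call, so the 44 losses cannot be read against all 424 values. A fit that did not hold a peak, or gave it no adjusted p, is not counted as a loss. Depth limits the weakest peaks, with 2 to 13 counts per library at the Snai1 peak at 7.72 kb, which the thinned fit and the filter of 10 counts in 4 libraries do not hold.

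Calls over all peaks at 24, 48 and 72 h and over the mean were 2341, 2437, 2666 and 3559. DESeq2 gave 90, 76, 115 and 231, thinning gave 707, 722, 1460 and 1590, and leaving out 1 library gave 508 to 2515, 517 to 2553, 713 to 2870 and 663 to 3507. For 72 against 24 h (999) DESeq2 gave 5, thinning 418, summed pairs 644 and leaving out 1 library 208 to 1135. For 48 against 24 h (160) the counts were 0, 8, 83 and 17 to 223. For 72 against 48 h (8) DESeq2 gave 0, summed pairs 2, the groups compared alone 5 and leaving out 1 library 0 to 20.

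Calls at the genes described were 2, 3, 1 and 2 at 24, 48 and 72 h and over the mean. DESeq2, with an adjusted p for 11 to 13 of the 19, and thinning gave 0 in each. Leaving out 1 library gave 0 to 2, 0 to 3, 0 to 1 and 0 to 2. At 24 h the filter of 10 counts in 4 libraries, the replicate block and summed pairs gave 1 each. At 72 h the groups compared alone gave 2 (this was not run for the mean of the 3 times), and over the mean summed pairs gave 1. Summed pairs leave 5 libraries and 1 residual degree of freedom, so calls kept there are no independent check.

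The differences between replicates correlated between groups at -0.0302 to 0.00100. As these differences are mostly of the size of counting error, such values cannot show whether a replicate number marks a shared batch. With the replicate block calls over all peaks were 2262, 2342, 2566 and 3464, and calls at the genes described 1, 2, 1 and 2. The last 2, over the mean, were both lower, where the main fit had 1 higher and 1 lower. The Snai2 call was lost there, and the Prrx1 peak 35.8 kb beyond its 3′ end was gained. At a limit of 20 kb 17 peaks belonged to the genes and at 100 kb 24. At a −log10 q of at least 5 the 72 h list held 8 of the peaks, and 8 when 50% of a peak had to be covered, against 14. The share of all consensus peaks was not counted under these rules.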
